A study of Mus musculus with 96 samples.

Results

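Liver of mice that had eaten a high-fat diet (HFD) for 4 weeks was compared with liver of mice on chow (CD) for the same time, the first of 6 sampled weeks. The libraries were chosen by their labelled tissue and week, which gave 8 liver libraries, 4 per diet, of 96 libraries in all. The series holds poly(A) RNA sequencing of islets and liver from the same mice, taken every 4 weeks from week 4 to week 24. Each value is in FPKM, fragments scaled to transcript length and to the library's mapped fragments, so the number of reads behind it is unknown and no counting interval can be given.

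All mice were C57BL/6N males bought at 4 weeks of age, housed at 22°C with equal hours of light and dark and free access to food, and none carried an introduced allele. The CD mice (CD101, CD103, CD104 and CD106) ate a LabDiet chow with 13.5% fat. The HFD mice (HFD112, HFD113, HFD114 and HFD118) ate Research Diets D12492 with 60% fat. The chow is not an ingredient-matched control for the HFD, so fat content and the other ingredients of the diets cannot be told apart. A piece of the same liver region was frozen, so each library mixes hepatocytes with the other cells of the liver, and in such bulk tissue a change in the number of cells of a type and a change of RNA per cell cannot be told apart. The hour of sampling for the liver is not given in the sources used here.

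Fat that reaches the liver is taken up and carried by fatty acid binding proteins, and is then burned in mitochondria and peroxisomes, stored in droplets or exported in lipoproteins. The nuclear receptor PPARA senses fatty acids and switches on the genes that burn them, while SREBP1c and ChREBP, driven by insulin and sugar, switch on the genes that make them. Hepatocytes also make the acute phase proteins and clear drugs and reactive compounds, and they sit beside sinusoidal endothelium, Kupffer cells (resident macrophages) and vitamin A-storing stellate cells.

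The 8 libraries carried hepatocyte transcripts at similar levels, and the summed FPKM of 9 hepatocyte markers ran from 45650 to 59939 in CD and from 53850 to 63472 in HFD. Between 9347 and 10034 genes reached 1 FPKM per library. The CD libraries did not form 1 set. On log2(FPKM + 1) values, CD103 and CD104 correlated at r = 0.995 and CD101 and CD106 at r = 0.987, while the 4 pairs across these sets lay between 0.970 and 0.972. The 6 HFD pairs lay between 0.982 and 0.992. The clock gene Arntl differed in the same way, at 2.17, 0.32, 0.34 and 2.19 FPKM in CD101, CD103, CD104 and CD106, against 0.94, 0.31, 0.35 and 0.52 FPKM in HFD112, HFD113, HFD114 and HFD118. The first principal component set CD103 and CD104 apart from the other 6 libraries, and only the second separated the diets. What set the CD libraries apart was not tested.

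**Figure D1:**
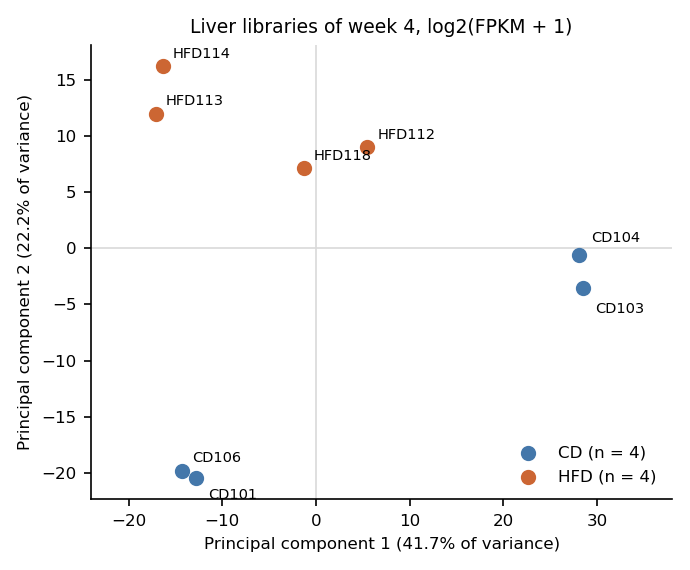
Position of the 8 week 4 liver libraries on the first (x axis, 41.7% of the variance) and second (y axis, 22.2%) principal components of log2(FPKM + 1), with each point 1 library coloured by diet. CD103 and CD104 lie at the far right, CD101 and CD106 at the lower left, and the 4 HFD libraries all lie above the CD libraries on the second component.

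Few single genes passed the test across all genes. Of 9875 genes that reached 1 FPKM in 4 or more of the libraries, 5 (0.0506%) reached an adjusted p under 0.05 with limma, of which Dgcr6, Cela1, Mrc1 and Abhd2 rose and Odf3b fell in HFD. Of these, 3 (0.0304%) also differed by 1 or more on the log2 scale, all of them higher in HFD. The count at an unadjusted p under 0.05 was 931 higher (9.43%) and 340 lower (3.44%), and the values of the diets did not overlap for 578 genes higher in HFD (5.85%) and 200 lower (2.03%). The median log2 fold change over all genes tested was 0.09, and it moved to -0.01 when libraries were scaled by the median ratio. The number past the adjusted threshold depended on single libraries. It was 61 without CD101, 2 without CD103 or CD106, 1 without HFD112 or HFD113, and 0 without HFD114, where 841 genes had an unadjusted p under 0.05. With the fold minimum the count was 31 without CD101, 1 without HFD112 or HFD113, and 0 without HFD114.

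Dgcr6, a gene of the region deleted in DiGeorge syndrome (chr16:18052860-18071632, plus strand, build GRCm38.p5 as the table gives it), showed the clearest difference. Its level was 3.77, 3.98, 5.88 and 5.66 FPKM in CD101, CD103, CD104 and CD106, and 38.7, 19.7, 32.0 and 25.2 FPKM in HFD112, HFD113, HFD114 and HFD118. Each HFD value lay far above the highest CD value, and the log2 fold change was 2.34 ± 0.21 (SE, n = 4 per diet, limma adjusted p = 0.0128). Without HFD114 the limma adjusted p was 0.0923.

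Cela1, a serine protease of the elastase family (chr15:100674421-100687920, minus strand), had 26.8, 33.7, 25.8 and 22.9 FPKM in the CD libraries and 57.2, 67.9, 54.8 and 67.5 FPKM in the HFD libraries, in the same order of mice. All 4 HFD livers lay above all CD livers, by 1.16 ± 0.13 on the log2 scale (SE, limma adjusted p = 0.0379). Cela1 is known as a pancreatic gene, and of the 12 other acinar genes examined (among them Amy2a5, Prss2 and Cpa1) only Cela2a, at 0.72 to 1.97 FPKM, reached 1 FPKM in 4 or more of these livers.

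Mrc1, the mannose receptor of macrophages and sinusoidal endothelium (chr2:14229414-14332023, plus strand), was at 1.04, 1.51, 1.95 and 1.29 FPKM in CD and at 3.78, 3.96, 4.15 and 4.36 FPKM in HFD. The groups did not overlap, and the log2 fold change was 1.06 ± 0.12 (SE, limma adjusted p = 0.0379). Abhd2, a lipid hydrolase (chr7:79273266-79361601, plus strand), read 3.25, 3.72, 3.21 and 2.98 FPKM in CD and 6.89, 5.98, 5.73 and 6.61 FPKM in HFD, a log2 fold change of 0.77 ± 0.10 (SE, limma adjusted p = 0.0486). Odf3b (chr15:89377447-89379681, minus strand) was the 1 gene that fell, from 9.12, 8.38, 8.26 and 9.40 FPKM in CD to 4.68, 4.23, 3.64 and 5.24 FPKM in HFD, by 0.85 on the log2 scale (SE 0.11, limma adjusted p = 0.0486). For Abhd2 and Odf3b as well, the highest value of the lower diet lay under the lowest value of the other.

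**Figure D2:**
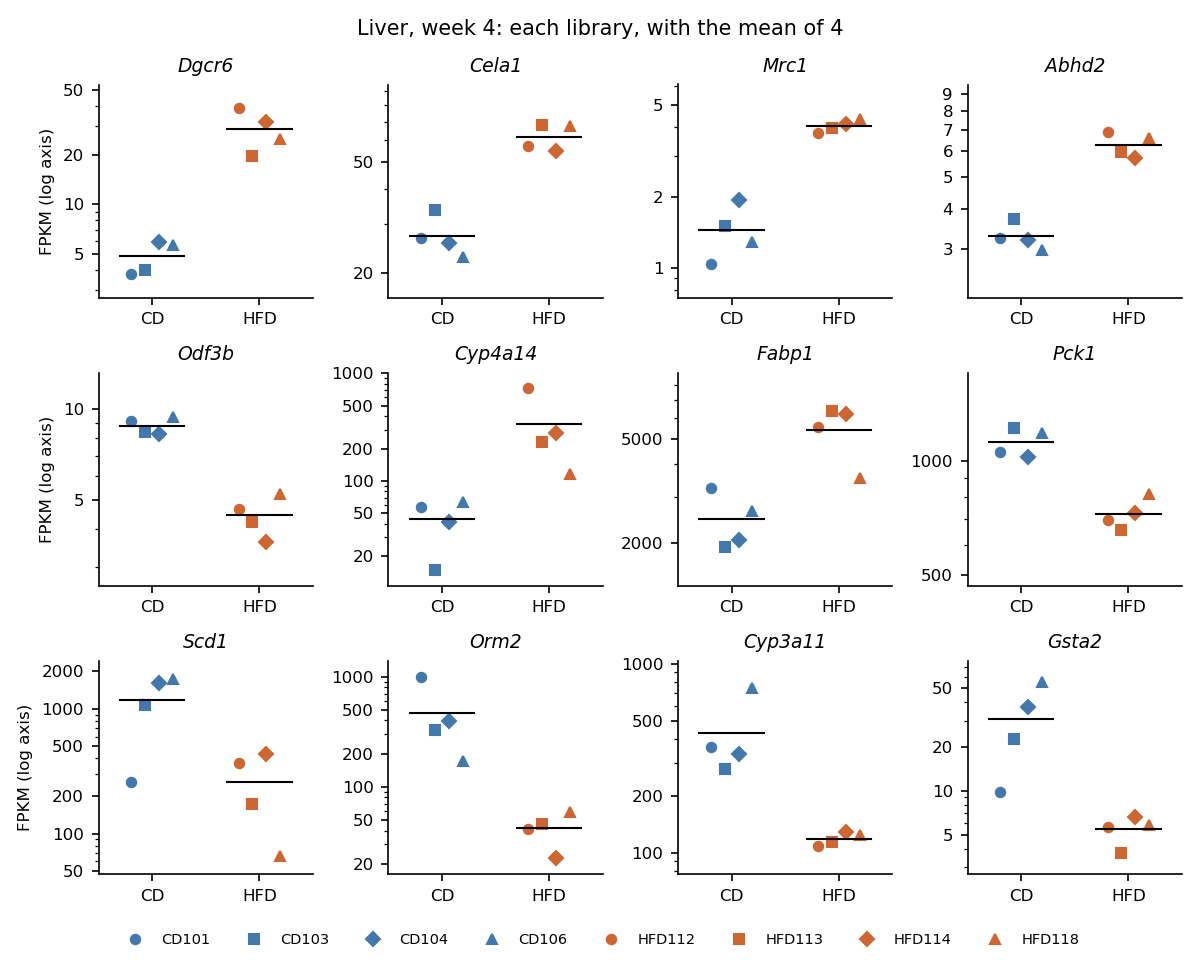
FPKM (y axis, log scale) of 12 genes in each of the 4 CD and 4 HFD liver libraries of week 4, 1 symbol per library and a line at the mean of each diet. Only the first 5 genes passed the adjusted test; Scd1 is the 1 gene drawn whose diets overlap, through CD101 at 258.9 FPKM.

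Set against the later weeks, the genes past the threshold differed in which diet was out of the usual range. All 4 CD livers of week 4 lay below the whole range of the 20 later CD livers for Dgcr6 (17.1 to 32.2 FPKM) and for Mrc1 (2.38 to 4.95 FPKM), and above it for Odf3b (2.83 to 6.91 FPKM). The HFD livers of week 4 lay within the later HFD range in 4 of 4 libraries for Mrc1 and Odf3b, and in 2 of 4 for Dgcr6. Cela1 was the reverse, since its 4 CD values fell inside the later CD range of 9.57 to 44.6 FPKM and its 4 HFD values lay above the later HFD range of 8.35 to 44.3 FPKM. Abhd2 lay inside the later range of its own diet in all 8 libraries. In all genes tested, the 4 CD livers of week 4 lay wholly outside the later CD range for 2.78%. Of the genes without overlap, the share was 4.33% for those higher in HFD and 10.5% for those lower. For the 4 HFD livers against the later HFD range, the shares were 4.49%, 3.46% and 7.0% in the same order. Genes without overlap were picked by these same week 4 values, so no conclusion is drawn from their shares. Mice sampled later were also older, so age and time on diet cannot be told apart in these ranges.

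The Dgcr6 difference was not seen in the islets of the same mice. Islet FPKM was 15.9, 15.4, 12.7 and 15.2 in the CD mice and 16.2, 15.1, 13.8 and 15.7 in the HFD mice of week 4, values that overlap. In the 40 later islet libraries Dgcr6 ran from 9.57 to 16.8 FPKM.

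**Figure D3:**
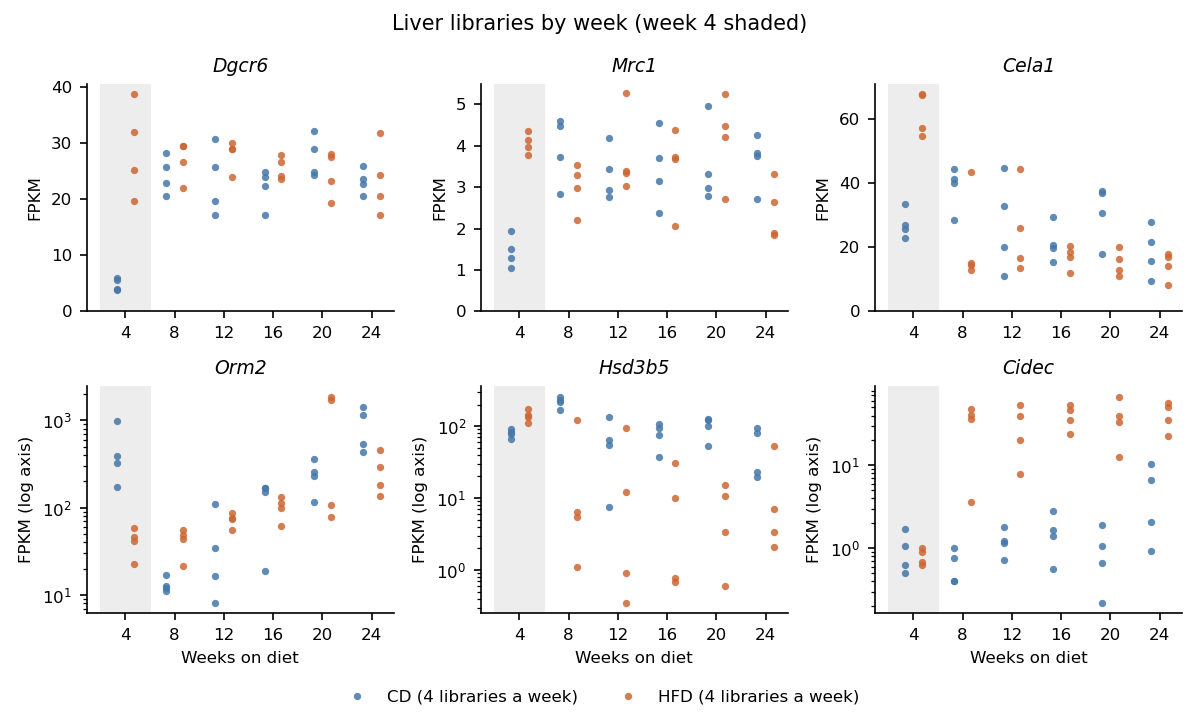
FPKM of 6 genes in all 48 liver libraries by weeks on diet (x axis), CD and HFD beside each other with 4 libraries each, on a linear axis in the upper row and a log axis in the lower row. At week 4, shaded, the CD livers are low for Dgcr6 and Mrc1 and high for Orm2, and the HFD livers are high for Cela1. Hsd3b5 and Cidec do not yet show the low and high values of most later HFD livers. Single HFD livers of weeks 8 and 12 lie apart from the others of their week for these genes.

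A further 11 genes had a limma adjusted p of 0.0524, just above the threshold. Those higher in HFD were Abcc9 (the sulfonylurea receptor subunit SUR2), Reln (reelin, secreted by stellate cells), Rgs5 (a pericyte regulator of G protein signalling), Gpc1 (a glypican), Elovl2 (an elongase of polyunsaturated fatty acids) and Colec10 (a collectin). Those lower were Rnd2, Tmed3, Cd9, Htatip2 and Orm2. Rgs5 had 1.03, 1.66, 1.74 and 1.4 FPKM in CD and 3.5, 6.79, 6.36 and 4.16 FPKM in HFD. Elovl2 had 65.5, 56.4, 60.7 and 76.7 FPKM in CD and 149.2, 148.7, 156.03 and 100.97 FPKM in HFD. For all 11 the diets did not overlap, and their log2 fold changes lay between -3.24 for Orm2 and 1.31 for Rgs5.

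Genes that burn fatty acids were higher in HFD as a group, with no member past the adjusted threshold. Of 41 tested, 35 had a positive log2 fold change, 17 were higher and 1 lower at an unadjusted p under 0.05, and 5 did not overlap between diets, all higher. The group's median was 0.30, against 0.09 for all genes. Of the 9875 genes tested in all, 6744 had a positive log2 fold change. Of them, 9.43% were higher and 3.44% lower at that p, and 5.85% were higher and 2.03% lower without overlap. In the fatty acid oxidation group, the number higher at an unadjusted p under 0.05 was 10 with median ratio scaling, 7 without HFD114, 10 without HFD112 and 11 without CD103. Cyp4a14, which hydroxylates fatty acids and is a classic PPARA target, had the largest difference. It was at 57.3, 14.8, 41.6 and 63.5 FPKM in CD and at 725.2, 228.3, 281.9 and 116.5 FPKM in HFD, where HFD112 was the highest and HFD118 the lowest. The log2 fold change was 2.77 ± 0.58 (SE, limma adjusted p = 0.109), and part of its reads could belong to the closely related Cyp4a10, whose diets overlapped. Ppara itself was at 29.2, 34.9, 40.9 and 33.1 FPKM in CD and at 50.4, 53.0, 53.8 and 42.4 FPKM in HFD, higher in all 4 HFD livers by 0.52 ± 0.12 (SE, limma adjusted p = 0.153). The other genes whose diets did not overlap were Cpt1a, which admits fatty acids to mitochondria (0.35 ± 0.12), Bdh1 of ketone metabolism (0.69 ± 0.15) and the aldehyde dehydrogenase Aldh3a2 (0.73 ± 0.14). Fgf21, a hepatokine under PPARA, ranged from 0.23 to 2.05 FPKM in CD and from 0.32 to 4.24 FPKM in HFD and overlapped.

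The binding protein genes Fabp1, Fabp2 and Fabp4 and the importer gene Cd36 were higher in every HFD liver, while Fabp5 was lower in every HFD liver and the droplet gene Plin2 overlapped. Fabp1, the main liver form, had 3257, 1933, 2069 and 2649 FPKM in CD and 5533, 6365, 6232 and 3547 FPKM in HFD. No HFD value fell below a CD value, and the log2 fold change was 1.12 ± 0.23 (SE, limma adjusted p = 0.108). Fabp2 (1.51 ± 0.31), Fabp4 (1.20 ± 0.21) and Cd36 (0.80 ± 0.15) did not overlap either, with limma adjusted p between 0.0775 and 0.109. These were all 4 genes without overlap among the 23 tested for uptake and storage, against 5.85% of all genes higher without overlap. The group's median was 0.15, and Fabp5 was not a member of the group. The droplet coat gene Plin2 was at 244.2, 111.0, 152.8 and 199.0 FPKM in CD and at 226.5, 152.7, 163.8 and 132.7 FPKM in HFD, and the diets overlapped. Cidec and Cidea, which enlarge droplets, stayed at or under 1.70 and 0.08 FPKM in all 8 livers. Fabp4 and Car3 are also adipocyte genes, and the 5 other adipocyte markers (Adipoq, Cfd, Retn, Lep and Plin1) were at 0.28 FPKM or less in every library. Fabp2 is also an enterocyte gene, and of the other gut markers Vil1, Lypd8 and Muc2 were at 0.05 FPKM or less, while Tff3 was at 5.99 to 27.8 FPKM in CD and 14.5 to 22.9 FPKM in HFD.

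The Fabp1 promoter is shown because fatty acid receptors bind direct repeats of the kind it carries. In the RefSeq promoter table (build GRCm38.p6, 250 bases before to 50 after the start), 2 copies of AGGNCA with 1 base between, read on both strands, were found in 0.451% of 27025 genes, in Fabp1 alone of 22 uptake and storage genes with an entry, and in none of 30 fatty acid oxidation genes with an entry. The stretch at chr6:71199772-71199864, plus strand, ends 15 bases before the start, and capitals mark the match.
Fabp1: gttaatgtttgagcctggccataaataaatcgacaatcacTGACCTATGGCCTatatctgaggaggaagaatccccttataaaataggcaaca

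Genes of fatty acid synthesis did not move as a group. Of 18 tested, 3 were higher and 4 lower at an unadjusted p under 0.05 (against 9.43% and 3.44% of all genes). The median log2 fold change was -0.07 and ran from -0.28 without HFD114 to 0.23 without HFD118. Srebf1, which encodes SREBP1, was at 61.3, 47.9, 50.2 and 29.2 FPKM in CD and at 75.5, 179.8, 205.1 and 72.6 FPKM in HFD, higher without overlap (1.37 ± 0.37, SE, limma adjusted p = 0.203). The desaturases Fads1 (0.54 ± 0.18) and Fads2 (1.23 ± 0.29) were likewise higher in all 4 HFD livers. In contrast, the stearoyl-CoA desaturase Scd1 had 258.9, 1079, 1601 and 1733 FPKM in CD and 370.9, 173.8, 434.5 and 66.3 FPKM in HFD. CD101 lay among the HFD values, and the difference of -2.17 ± 0.72 had a limma adjusted p of 0.270. The malic enzyme Me1 (-1.90 ± 0.49), Acss2 (-0.87 ± 0.25) and Acacb (-0.97 ± 0.29) were also lower on average and overlapped. Fasn, the fatty acid synthase, ranged from 28.0 to 46.9 FPKM in CD and from 10.1 in HFD118 to 126.2 FPKM in HFD114.

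Pck1, which commits carbon to gluconeogenesis, was lower in every HFD liver, at 1055, 1216, 1019 and 1184 FPKM in CD and 698.1, 655.2, 727.5 and 818.1 FPKM in HFD (-0.63 ± 0.11, SE, limma adjusted p = 0.0779). Of 12 gluconeogenesis genes, it alone reached an unadjusted p under 0.05, where 3.44% of all genes were lower and 9.43% higher. It was also the 1 gene of the group without overlap, against 2.03% of all genes lower. Without CD101, 4 of 13 were lower, where 1498 of 10004 genes in all reached that p in either direction. Among 19 genes of insulin signalling the median was 0.06 and no gene separated the diets.

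Most genes of enzymes that clear drugs and conjugate reactive compounds had lower means in HFD. Of 24 drug metabolism genes tested, 18 had a negative and 6 a positive log2 fold change. At an unadjusted p under 0.05, 12 were lower and 0 higher (against 3.44% and 9.43% of all genes). Of the 24, 6 were lower without overlap (against 2.03% of all genes), and the median was -0.43, although 0 passed the adjusted limma test. Cyp3a11, the main CYP3A enzyme of mouse liver, had 361.4, 276.4, 334.5 and 740.3 FPKM in CD and 107.8, 114.4, 128.6 and 123.7 FPKM in HFD. The HFD livers were within a narrow band well under every CD liver (-1.74 ± 0.27, SE, limma adjusted p = 0.0594). Cyp3a59 (-1.35 ± 0.43), Cyp2c29 (-0.68 ± 0.13), Cyp2c50 (-0.49 ± 0.14), Cyp2c54 (-0.68 ± 0.12) and the carboxylesterase Ces1g (-1.19 ± 0.23) made up the rest of those without overlap. Near-identical copies within the CYP3A and CYP2C families can share reads, so these values are uncertain gene by gene.

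Glutathione and oxidant defence genes mostly went the same way, 17 with a negative and 8 with a positive log2 fold change. Of 25 glutathione and oxidant defence genes, 10 were lower and 0 higher at an unadjusted p under 0.05 (0 past the adjusted limma test). Of the 25, 7 were lower without overlap, and the median was -0.30. The shares over all genes were 3.44% lower and 9.43% higher at that p, and 2.03% lower without overlap. Gsta2 was at 9.78, 22.4, 37.0 and 54.9 FPKM in CD and at 5.62, 3.77, 6.65 and 5.86 FPKM in HFD, so that even its lowest CD library, CD101, exceeded all HFD libraries (-2.08 ± 0.44, SE, limma adjusted p = 0.109). Gstm2 (-1.0 ± 0.20), Gstm1 (-0.84 ± 0.22), Gstt3 (-0.81 ± 0.19) and the quinone reductase Nqo1 (-0.67 ± 0.12) were lower without overlap as well. The remaining genes of this kind among the largest differences were Ugt1a9, a glucuronosyltransferase (14.1 ± 6.69 FPKM in CD and 2.83 ± 0.90 in HFD, SD, n = 4), and the acetyltransferase Nat8 (19.9 ± 5.58 and 7.36 ± 2.00). Fabp5, a fatty acid binding protein, was at 8.0 to 18.7 FPKM in CD and 3.5 to 7.15 FPKM in HFD.

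Acute phase genes were higher in CD, and there they varied most between livers. Orm2, an alpha-1-acid glycoprotein, had the largest difference of all genes whose diets did not overlap, at 991.1, 327.7, 395.1 and 172.3 FPKM in CD and 41.1, 45.9, 22.6 and 59.2 FPKM in HFD (-3.24 ± 0.49, SE, limma adjusted p = 0.0524). Orm1 was lower in all 4 HFD livers too (-1.48 ± 0.28). Saa1, serum amyloid A, was at 16209, 3032, 3310 and 829 FPKM in CD and at 320, 2105, 199 and 605.08 FPKM in HFD, and HFD113 lay among the CD values. Of 28 tested genes, 25 had a negative log2 fold change. At an unadjusted p under 0.05, 7 were lower and 1 higher (against 3.44% and 9.43% of all genes), and the median was -0.45. Without CD101, the library with the highest Saa1, Saa2, Lcn2 and Orm2, the median was -0.11, and without CD106 11 genes were lower at an unadjusted p under 0.05. In CD livers of week 8, Orm2 was at 11.2 to 16.9 FPKM and Saa1 at 41.7 to 96.6 FPKM, both under all 4 CD livers of week 4. In CD livers of week 24, Orm2 was again at 429.5 to 1405 FPKM.

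Interferon-stimulated genes had higher means in HFD. All 18 tested had a positive log2 fold change, from 0.04 to 0.74, and the median was 0.53. Of the 18, 13 reached an unadjusted p under 0.05 and 7 did not overlap, with 0 past the adjusted limma test. Over all genes, 9.43% were higher at that p and 5.85% were higher without overlap. Oasl1 had 4.77, 3.69, 3.88 and 3.78 FPKM in CD and 5.64, 6.79, 7.30 and 7.01 FPKM in HFD. Each HFD value was above each CD value, by 0.61 ± 0.11 on the log2 scale (SE, limma adjusted p = 0.0779). Usp18, Ifit3, Rsad2, Gbp2 and Gbp3 also separated the diets, by 0.39 to 0.71. Ifit1 and Isg15, with 0.66 to 2.52 and 7.42 to 14.6 FPKM in CD, overlapped.

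Promoters of 3 of these genes are shown because they carry the interferon response letters, 2 copies of GAAA with 2 bases between, read on both strands. In the same RefSeq table the letters occurred in 8 of 16 interferon-stimulated genes with an entry and in 3.99% of 27025 genes. The stretches lie at chr19:34583333-34583456 on the plus strand (Ifit3), chr12:26456523-26456612 on the minus strand (Rsad2) and chr3:142559959-142560043 on the plus strand (Gbp3). Capitals mark the matches, of which the pair in Gbp3 overlaps.
Ifit3: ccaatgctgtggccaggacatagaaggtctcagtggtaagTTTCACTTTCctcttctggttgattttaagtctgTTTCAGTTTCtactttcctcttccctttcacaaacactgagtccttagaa
Rsad2: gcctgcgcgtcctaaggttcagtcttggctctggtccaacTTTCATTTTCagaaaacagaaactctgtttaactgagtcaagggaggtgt
Gbp3: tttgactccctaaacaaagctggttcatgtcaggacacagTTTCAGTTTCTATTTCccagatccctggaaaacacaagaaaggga

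Markers of stellate, endothelial and Kupffer cells were higher in HFD, and the CD pairs differed in them. All 9 stellate markers had positive log2 fold changes (median 0.87), 8 at an unadjusted p under 0.05 and 6 without overlap. Over all genes, 9.43% were higher at that p and 5.85% were higher without overlap. The endothelial markers were positive in 9 of 9 (median 0.90), 7 of them (Mrc1 included) at an unadjusted p under 0.05 and 3 without overlap, and the Kupffer markers were positive in 7 of 7 (median 0.73), 6 of them at an unadjusted p under 0.05 and 2 without overlap. Their summed FPKM was low in CD101 and CD106 and higher in CD103 and CD104. For the 9 endothelial markers it was 29.7, 76.1, 86.7 and 32.2 in CD101, CD103, CD104 and CD106 and 77.8 to 104.5 in HFD. For the 9 stellate markers it was 64.1 to 143.3 in CD and 146.2 to 204.1 in HFD, and this was the 1 sum of the 3 that did not overlap. Dcn, decorin, was at 22.8, 24.4, 34 and 26.6 FPKM in CD and at 38.7, 61.3, 62.6 and 39.9 FPKM in HFD (0.87 ± 0.19). Vsig4, a complement receptor of Kupffer cells, was at 3.76, 5.47, 5.02 and 3.71 FPKM in CD and at 7.81, 11.6, 8.02 and 11.6 FPKM in HFD (0.96 ± 0.17). Both were higher in each HFD liver than in any CD liver, and so were Lyve1, Fcgr2b, Cd163, Colec11, Lrat and Hgf.

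Leaving out CD101 and CD106, a choice made after seeing the data, lowered the median to 0.54 for stellate, 0.34 for endothelial and 0.26 for Kupffer markers. The number at an unadjusted p under 0.05 fell to 5, 3 and 1. Those livers had the lowest marker sums, so leaving them out lowers these differences by construction, and no conclusion is drawn from it. Medians that moved without CD103 and CD104 instead are given below. The Kupffer count was 3 with median ratio scaling, and 4 without CD101 or CD106 alone, HFD112, HFD113 or HFD118. Of 12 genes of fibrosis and matrix tested, 4 were higher at an unadjusted p under 0.05, against 9.43% of all genes. The fibrosis median of 0.41 became 0.08 without CD101 and CD106. That count of 4 was 0 with median ratio scaling and without both libraries, 1 without CD101, CD106, HFD112 or HFD114 alone, 2 without HFD113, 2 in the fit of all 48 liver libraries, and 7 without CD103. Without CD101 and CD106 the interferon median became 0.65. The 7 matched T and NK cell genes and 5 B cell genes each summed to 3.06 FPKM or less in every library and none was tested.

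**Figure D4:**
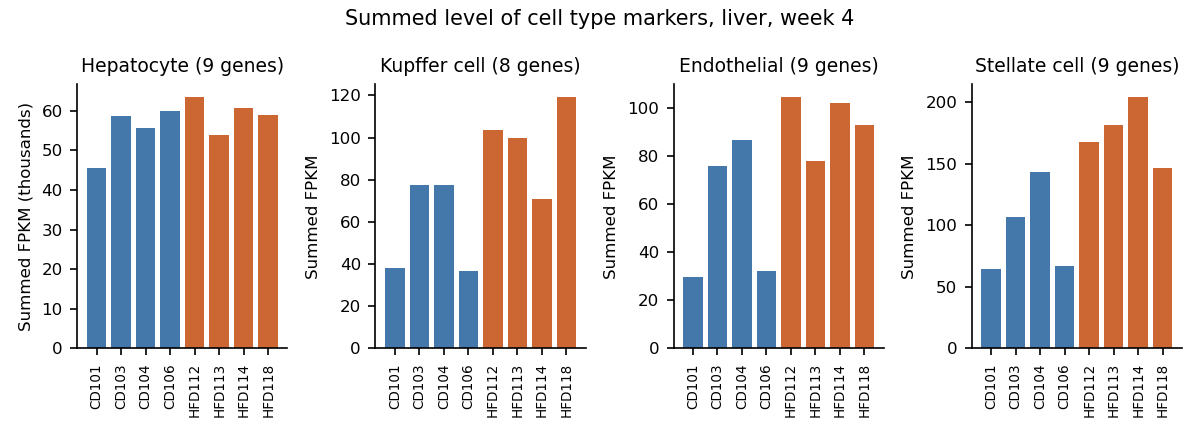
Summed FPKM (y axis, from 0) of the markers of 4 cell types in each of the 8 week 4 liver libraries, with CD and HFD bars in different colours. Hepatocyte sums are similar in all libraries, while CD101 and CD106 have the lowest sums for the other 3 cell types.

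**Figure D5:**
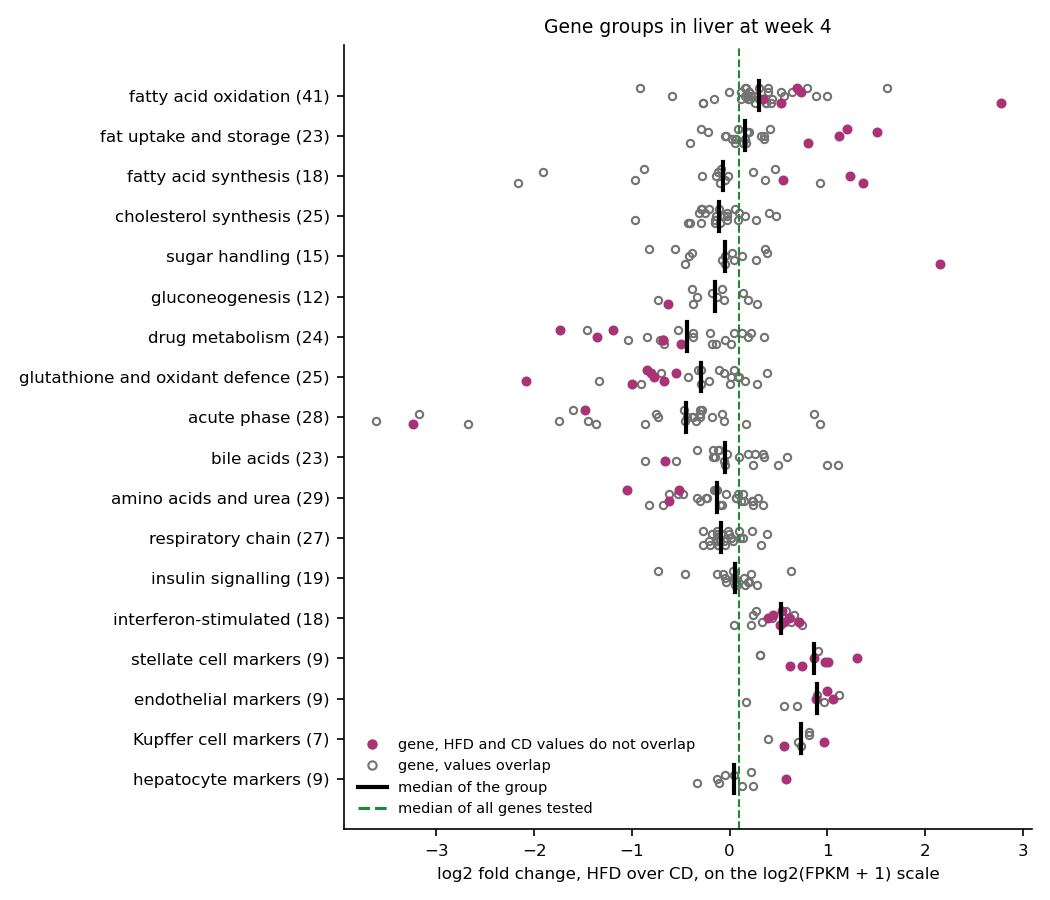
Log2 fold change of HFD over CD (x axis, on the log2(FPKM + 1) scale) of each tested gene in 18 groups (y axis, number tested in brackets), filled where the diets do not overlap, with a bar at each group's median and a dashed line at the median of all genes. Interferon-stimulated, stellate, endothelial and Kupffer cell genes lie wholly to the right of 0. Drug metabolism, glutathione and acute phase genes have the lowest medians.

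Genes with male-biased expression had a small positive median. Of 25 tested, 5 were higher and 2 lower at an unadjusted p under 0.05 (2 higher in the fit of all 48 liver libraries, 4 lower with median ratio scaling and 5 lower without CD101), and the median was 0.24. Over all genes, 9.43% were higher and 3.44% lower at that p. Hsd3b5, a steroid dehydrogenase of male liver, was at 90.2, 83.7, 65.4 and 78.5 FPKM in CD and at 144.9, 173.3, 110.5 and 133.6 FPKM in HFD, higher in each HFD liver (0.81 ± 0.15 SE). The urinary protein gene Mup9, which has near-identical copies, was at 49.1 to 143.3 FPKM in CD and 190.6 to 472.8 FPKM in HFD (2.00 ± 0.36), and Mup21 did not overlap either (1.08 ± 0.24). Hsd17b6, another steroid enzyme (1.21 ± 0.23), and Adgrv1, an adhesion receptor (1.43 ± 0.24), were also among the 10 largest differences of genes higher without overlap. The largest on the other side included Raet1d, a ligand of the NK cell receptor NKG2D (-1.39 ± 0.24).

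The other groups showed smaller or mixed differences. Of 15 retinoid genes, 5 were higher and 2 lower at an unadjusted p under 0.05 (3 higher with median ratio scaling), against 9.43% and 3.44% of all genes. Without overlap, 2 were higher, among them Rdh9 (0.84 ± 0.15), and 1 was lower, Cyp26a1, which degrades retinoic acid (-1.30 ± 0.23). In amino acid and urea metabolism, 6 of 29 genes were lower at an unadjusted p under 0.05 (3 without CD103, HFD113 or HFD114), against 3.44% of all genes. Bhmt, which remethylates homocysteine, was lower without overlap (-1.05 ± 0.26), as were Cth and Hal, against 2.03% of all genes. Neither the 25 cholesterol synthesis genes nor the 27 respiratory chain genes held one that separated the diets, and their medians were -0.11 and -0.09. Of 23 bile acid genes only the exporter Abcc3 separated them (-0.66 ± 0.19), where 2.03% of all genes were lower without overlap. Cyp7a1, the rate-limiting enzyme of bile acid synthesis, ranged from 5.10 to 29.3 FPKM in CD and from 5.08 to 107.9 FPKM in HFD. Among 25 genes of endoplasmic reticulum stress the median was 0.02, with Ern1 higher (0.35 ± 0.12) and Eif2ak3 lower (-0.28 ± 0.11) in each HFD liver. At an unadjusted p under 0.05, 1 was higher and 4 were lower (7 lower with median ratio scaling and 1 lower without CD101). Over all genes, 9.43% were higher and 3.44% lower at that p, and 5.85% were higher and 2.03% lower without overlap.

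The diet effect at week 8 differed from that at week 4 for 181 of 10310 genes (1.76%), in a limma contrast over the 16 liver libraries of both weeks. The difference was positive for 126 and negative for 55. The count was 70 without HFD113, 120 without CD103, and 1.00% of the genes tested without HFD114 or HFD118 and 1.01% without CD104. The 5 most positive were Cyp2b9, a steroid hydroxylase more abundant in female liver (5.76 ± 0.41, SE), the iron-binding acute phase gene Lcn2 (4.97 ± 1.16), Orm2 (4.78 ± 0.61), Saa1 (4.6 ± 1.08) and the droplet gene Cidec (4.00 ± 0.76). Cyp2b9 and Cidec were at or under 1.70 FPKM in all 8 livers of week 4. For Orm2 the log2 difference between diets was -3.24 at week 4 and 1.54 at week 8. Among gene groups, the effect was higher at week 8 for 8 of 42 fatty acid oxidation and 5 of 26 uptake and storage genes. It was also higher for 5 of 29 acute phase, 4 of 27 drug metabolism and 3 of 26 glutathione genes. In these groups 0 genes had a lower effect, while for male-biased genes it was lower for 3 of 25 and higher for 0. No other group held more than 2 in either direction, and 1.76% of all genes differed in either direction. The 5 most negative were Hsd3b5 (-5.17 ± 1.16), the glucuronosyltransferase Ugt2b38 (-2.84 ± 0.52), the cytokine receptor Lifr (-2.54 ± 0.42), the pseudogene Gapdh-ps15 (-2.23 ± 0.40) and Dgcr6 (-2.20 ± 0.26). For Hsd3b5 the log2 difference between diets was 0.81 at week 4 and -4.36 at week 8, and for Dgcr6 it was 2.34 and 0.14. The HFD livers of week 8 were not alike, and HFD217 had 123.3 FPKM of Hsd3b5 and 3.66 FPKM of Cidec. HFD211, HFD212 and HFD213 had 1.09 to 6.48 FPKM of Hsd3b5 and 35.8 to 47.8 FPKM of Cidec. HFD316 of week 12 was also unlike them, at 93.0 and 7.95 FPKM. What set these livers apart was not tested.

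Averaged over the 5 later weeks, the diet effect differed from week 4 for 428 of 10879 genes (3.93%), of which 124 were negative and the rest positive, and for 268 without CD103 or CD104, 241 without HFD113 and 250 without HFD114. Cidea (4.32 ± 0.58) and Gsta1 (3.57 ± 0.67) joined Cyp2b9, Cidec and Orm2 among the most positive. Gsta1 had 0.71 to 9.26 FPKM in CD and 0.00 to 0.54 FPKM in HFD at week 4, and a median of 8.49 FPKM in the 20 later HFD livers. Cela1 (-1.68 ± 0.39) and Dgcr6 (-2.25 ± 0.19) were among the most negative, with Hsd3b5, Lifr and Ugt2b38. Among gene groups, the effect was lower later for 5 of 9 endothelial markers and 3 of 25 male-biased genes. It was higher for 7 of 28 uptake and storage, 6 of 26 glutathione and 6 of 16 lysosome genes. It was also higher for 5 of 23 key genes of the study and 4 of 29 acute phase genes. No other group held more than 2 in either direction, and 3.93% of all genes differed in either direction.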

How the data were processed

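Liver RNA was enriched for poly(A), primed with random hexamers and sequenced on BGISEQ-500. The authors deposited FPKM per gene and library in 1 table of 21990 genes, 20155 of them with values. The submitters' processing notes name HISAT2 2.0.4, Bowtie2 2.2.5, RSEM 1.1.12, DESeq2 and GRCm38.p5 without giving their roles. Columns of the authors' own comparisons (log2 ratios, p-values, q-values, modules and clusters) were not used. Because the values are FPKM, depth per library is unknown. No strand setting is given, so reads of overlapping genes on opposite strands cannot be told apart.

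Groups follow the labels, with 1 mouse per library. Genes that reached 1 FPKM in 4 or more libraries were tested on log2(FPKM + 1) with limma 3.58.1 in R 4.3.3 (mean-variance trend, robust), HFD minus CD, with Benjamini-Hochberg adjustment over all genes tested. Fold changes on this scale understate those of low genes. The median SE was 0.13. A gene was counted past the threshold at an adjusted p under 0.05, with and without a log2 difference of 1 or more. The change of the diet effect was fitted in limma over the libraries of weeks 4 and 8, and over all 48 liver libraries.

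Gene groups are described by counts and medians, without a test. The libraries, genes and gene groups were chosen with earlier results of these data known. Named genes are those past the adjusted threshold, the 10 largest differences in each direction among genes whose diets do not overlap (RIKEN genes left out), group members, genes the study names, and the 5 largest in each direction of each change of the diet effect. The 11 genes just above the threshold were named after their values were seen. Alternatives were a pseudocount of 0.1, no filter, median ratio scaling, 1 fit of all 48 libraries, plain eBayes, a fold minimum of 0.5 and leaving out each library. The fits were tested on simulated data. Some results are not reported here. Promoters came from RefSeq through Python 3.11.15 with pandas 2.3.3.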

Additional observations from a re-analysis of the deposited data

Results flagged for a closer look

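In 11 of 234 sets of 4 libraries examined, 1 library lay far from the other 3 by Dixon's ratio of its gap to the whole range, where chance gives about 1 in 20. In HFD, the ratio was 0.895 for Gpc1 and 0.889 for Elovl2, both lowest in HFD118. HFD114 was the highest for Cd36 (ratio 0.948), Cyp3a59 (0.912), Fcgr2b (0.908) and Lrat (0.832). HFD113 was the lowest for Ces1g (0.846) and HFD112 the lowest for Ifit1 (0.967). In CD, CD103 was the highest for Tff3 (0.841). The transcription factor Atf3 had a library far above the rest in each diet, CD101 (0.988) and HFD118 (0.929).

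The diet effect at week 8 minus that at week 4, on the log2 scale, was 5.76 for Cyp2b9, 4.97 for Lcn2, 4.78 for Orm2, 4.6 for Saa1 and 4.00 for Cidec. It was -5.17 for Hsd3b5, -2.84 for Ugt2b38, -2.54 for Lifr, -2.23 for Gapdh-ps15 and -2.20 for Dgcr6. The mean diet effect of the 5 later weeks minus that at week 4 was 4.42 for Cyp2b9, 4.32 for Cidea, 3.83 for Cidec, 3.66 for Orm2 and 3.57 for Gsta1, and -4.21 for Hsd3b5, -2.25 for Dgcr6, -2.03 for Lifr, -2.00 for Ugt2b38 and -1.68 for Cela1. Each passed an adjusted limma p of 0.05, and what they come from was not tested.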

How the results depend on the processing

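No paired analysis was possible because the diet groups share no mouse and no replicate number. The share of genes past the adjusted threshold, 0.0506%, was 0.0101% with a pseudocount of 0.1 and with median ratio scaling, 0.00599% with no filter, 1.02% with all 48 liver libraries in 1 limma fit, and 0% (HFD114 left out) to 0.610% (CD101 left out). With the fold minimum the count went from 3 to 1 with the pseudocount, with no filter and with the scaling, to 22 in the fit of 48 libraries, to 5 with a fold minimum of 0.5, and to between 0 and 31 with 1 library left out. Dgcr6 passed the adjusted limma threshold in each of these fits except the one without HFD114. Leaving out CD101 and CD106 together gave 12.3% and 131 genes, and leaving out CD103 and CD104 together gave 3.69% and 111 genes. These pairs were chosen after seeing the data, and the CD libraries left are alike, which lowers the spread by construction. With 1 week 4 library left out, the change of the diet effect by week 8 went from 1.76% of genes to between 0.681% and 2.40%. Without the pairs it was 11.6% and 4.00%. Over all later weeks it went from 428 genes to between 241 and 494 with 1 week 4 library left out. It was 1984 without CD101 and CD106. Libraries of later weeks were not left out, so the dependence of these counts on them was not tested.

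A group median was taken as moved when it shifted by more than the SD of the group's median between libraries of a diet, so groups that vary widely between livers are not listed as moved. Among these, leaving out 1 library took the median from -0.85 to 0.11 for immediate early, -0.28 to 0.23 for fatty acid synthesis, -1.31 to 0.00637 for erythroid and -0.65 to -0.11 for acute phase genes. Group medians that moved with median ratio scaling were 0.0389 for fat uptake and storage, -0.56 for drug metabolism, -0.00959 for hepatic insulin resistance, -0.0740 for retinoid, -0.26 for amino acid and -0.0131 for all genes. Without CD101 and CD106 they were 0.11 for bile acids, -0.57 for drug metabolism, -0.60 for glutathione, 0.20 for retinoid, -0.12 for lipoproteins, 0.65 for interferon, 0.0848 for fibrosis, -0.18 for lysosome, -0.18 for the study's key genes, -0.27 for periportal, -0.12 for pericentral, 0.26 for Kupffer, 0.34 for endothelial, 0.54 for stellate and 0.16 for cholangiocyte genes. Without CD103 and CD104 they were 0.0233 for gluconeogenesis, -0.34 for endoplasmic reticulum stress, 0.33 for clock, 0.32 for secreted factors, -0.0645 for retinoid, 0.36 for interferon, 0.77 for antigen presentation, 0.75 for fibrosis, 0.36 for lysosome and 1.20 for Kupffer genes. With 1 library left out, medians that moved ranged from -0.33 to -0.0728 for gluconeogenesis, 0.10 to 0.25 for fat uptake and storage, -0.12 to 0.10 for bile acids, -0.0493 to 0.22 for retinoid and 0.0108 to 0.22 for iron genes. The cause of these moves was not tested.

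Some differences near 0 changed sign. With 1 library left out, the log2 difference ranged from -0.235 to 0.141 for Plin2, -0.605 to 0.569 for Fasn, -0.36 to 0.0149 for Gapdh-ps15 and -0.0368 to 0.543 for Ugt2b38. It was 0.34 for Plin2 without CD101 and CD106 and 0.18 for Gapdh-ps15 without CD103 and CD104. The SE of a typical gene, 0.13, with 4 mice per diet limits what could be called.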

Other observations

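The other gene groups of the week 4 livers described next held no gene past the adjusted threshold. Among 13 iron genes, the hormone Hamp was at 647.4, 291.1, 1465 and 742.3 FPKM in CD101, CD103, CD104 and CD106 and at 337.0, 18.1, 547.0 and 7.67 FPKM in HFD112, HFD113, HFD114 and HFD118, where HFD113 and HFD118 were far below the other 6 livers. The group's median log2 fold change was 0.14. Of 15 clock genes and 12 immediate early genes tested, 0 reached an unadjusted p under 0.05 with limma, and the medians were 0.03 and -0.18. Over all genes, 9.43% were higher and 3.44% lower at that p. The clock and immediate early values rested on single libraries. Without HFD112, 4 clock genes were higher and 1 lower at an unadjusted p under 0.05 (median 0.18), and without CD104 1 was higher (median 0.18). Without HFD118, 4 immediate early genes were lower (median -0.85), and without CD101 their median was 0.11. Of all genes, 1473 of 10030 reached that p in either direction without HFD112, and 1121 of 9986 without HFD118. Lipoprotein genes (20 tested, median 0.03) held 1 without overlap, Apoa1, the main protein of HDL, where 5.85% of all genes were higher without overlap. It was at 7690, 8093, 6437 and 6053 FPKM in CD and 12443, 9627, 9273 and 10779 FPKM in HFD, higher in each HFD liver. The 8 genes of hepatic insulin resistance had a median of 0.11, the 6 of antigen presentation 0.34 and the 13 of the lysosome 0.08. Of those 8, 2 were higher and 1 lower without overlap, against 5.85% and 2.03% of all genes.

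Haemoglobin transcripts differed between livers within both diets. Hba-a1 was at 1342 FPKM in CD103 and 932.4 FPKM in HFD113, against 55.6 to 410.3 FPKM in the other 6 livers. The transcription factor Atf3 was at 13.8 FPKM in CD101 and 10.2 FPKM in HFD118 and at 0.58 FPKM or less in the other 6. Transcripts of the islet hormone genes Ins1 and Ins2 were listed in all 8 livers, at 6.69 to 17.4 and 19.4 to 42.1 FPKM. Of 7 female-biased genes tested, 1 was higher and 2 were lower at an unadjusted p under 0.05 (against 9.43% and 3.44% of all genes). Of the 7, 4 had a negative log2 fold change, and the median was -0.27. Cyp17a1 of this group was higher in each HFD liver, at 7.80 to 8.37 FPKM in CD and 10.5 to 21.8 FPKM in HFD. Periportal, pericentral and cholangiocyte markers had medians of -0.10, 0.06 and -0.03. Of 7 periportal markers, 3 were lower at an unadjusted p under 0.05 and 2, Pck1 and Hal, were lower without overlap (against 3.44% and 2.03% of all genes). Their summed FPKM was 2589.5 to 3167 in CD and 2254 to 2361 in HFD. Of 8 pericentral markers, 2 were lower at that p and 0 without overlap. The 18 tested key genes of the study had a median of 0.05. Of 4 tested secreted factors that the study names, the median was 0.65 and 1, Hgf, did not overlap, against 5.85% of all genes higher without overlap.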
